A study of Mus musculus with 36 samples.

Results

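The Dlk1-Dio3 imprinted domain lies on mouse chromosome 12, and 6 of its genes were followed here, of 55401 genes in the count files: Dlk1, Meg3, Rtl1, Rian, Mirg and Dio3. They were taken by name as the main coding and long non-coding genes of the domain, with earlier results of these data known, and no measured value enters the rule. RNA sequencing covered 36 libraries, 3 in each of 12 groups, of mouse embryonic stem cells (ESCs) and of epiblast-like cells (EpiLCs), a formative state reached from ESCs in culture. The study asked how the accessory proteins of Polycomb Repressive Complex 2 (PRC2), which deposits the repressive mark H3K27me3, act during this transition.

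In an imprinted domain, the copy from 1 parent is used and the other is silent. On the paternal chromosome of this domain, Dlk1, Rtl1 and Dio3 code for proteins, and on the maternal chromosome Meg3, Rian and Mirg are made as long non-coding RNAs that are thought to form a nearly continuous transcription unit and host snoRNAs and a large miRNA cluster. A differentially methylated region between Dlk1 and Meg3, the IG-DMR, sets this pattern, and methylation of the maternal copy in cultured pluripotent cells is known to silence Meg3 and its neighbours. These data count reads per gene without regard to parental allele, so they give the summed output of both copies.

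J2WT is the matched wild type of J2KO, which lacks JARID2, a protein specific to the PRC2.2 form. PclWT is the matched wild type of TKO, which lacks 3 Polycomb-like subunits of the PRC2.1 form, PHF1, MTF2 and PHF19, and of QKO, which lacks these and JARID2. These 5 lines were profiled as ESCs and as EpiLCs. WT and Pcgf2/4 KO, which lacks 2 PCGF subunits of canonical PRC1, were profiled as EpiLCs. The labels give the strain C57BL/6 for all. ESCs were kept in serum and LIF with the GSK inhibitor CHIR at 3 μM and the MEK inhibitor PD0325901 at 1 μM, and EpiLCs were taken after 2 days with 20 ng/mL of activin A and 12 ng/mL of bFGF. J2WT and J2KO came from one laboratory, PclWT and TKO from another and QKO from a further one, so line, origin and library set cannot be told apart. Which WT line is the control of Pcgf2/4 KO is not stated in the sources used here. Nothing says that the libraries of a group were separate cultures, so the p-values reflect only how these libraries vary, perhaps for technical reasons.

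The libraries held 6784578 to 18026492 counts assigned to genes, with a median of 10472704. In all groups general pluripotency genes were high, at a summed level of 767 to 3390 counts scaled to a common library size as CPM, the unit used for levels here, over Pou5f1, Sox2, Nanog and Sall4. Relative to PclWT, Mtf2 had log2 fold changes of -3.28 and -3.46 in TKO and QKO ESCs (edgeR adjusted p = 4.71e-18 and 3.58e-17), and Phf1 of -3.75 and -3.74 (edgeR adjusted p = 6.84e-10 and 6.03e-09). Reads counted over whole genes cannot reveal a missing exon in Jarid2, Phf19, Pcgf2 or Bmi1, which codes for PCGF4. Pcgf2 and Bmi1 were at 59 and 21.9 CPM in WT and at 64.6 and 23 CPM in Pcgf2/4 KO, so they do not check the labels. PclWT EpiLC replicate 1 stood apart from replicates 2 and 3, with chi-square values per degree of freedom of 65 and 72.2. QKO EpiLC replicate 2 also stood apart, at 30.5 and 35.8 against 2.03 between replicates 1 and 3, and every other pair of replicates was at 12.0 at most. Most log2 fold changes of the members that rest on either library are also given without it. Values of listed genes and neighbours, marker sums and count ratios are given with all libraries only.

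Dlk1 (ENSMUSG00000040856, a transmembrane ligand related to Delta) spans positions 109452823 to 109463336 of chromosome 12 in GRCm38, on the forward strand. Meg3 (ENSMUSG00000021268) follows at 109541001 to 109571726, Rian (ENSMUSG00000097451) at 109603940 to 109661716 and Mirg (ENSMUSG00000097391) at 109729764 to 109749460, all on the forward strand. Rtl1 (ENSMUSG00000085925, a retrotransposon-derived gene needed in the placenta) lies between Meg3 and Rian, at 109589193 to 109600330 on the reverse strand. Dio3 (ENSMUSG00000075707, the deiodinase that inactivates thyroid hormone) has 1 exon at 110279068 to 110281097. Of the exon bases of Rtl1, 8.4% are shared with other annotated genes, and the kit did not mark strand. Reads counted for Rtl1 therefore cannot be told apart from reads of the maternal transcript that crosses it in the opposite direction.

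The 250 bases before the RefSeq starts of Meg3, Dlk1 and Dio3 are shown because these genes behaved differently across the lines. The RefSeq start of Dlk1 is the annotated one given above and that of Meg3 lies 5 bases before it, but the RefSeq start of Dio3 lies 162 bases after the annotated start, so 162 of the 250 bases of its window are inside the annotated exon. The Mirg window, not shown, begins and ends inside the annotated gene. Windows were found for 5 of the 6 members in RefSeq (GRCm38.p6, forward strand), and capitals mark any match on either strand to the cyclic AMP response element TGACGTCA, the TATA box TATAAA, the CCAAT box or the ZFP57 core TGCCGC. ZFP57 is a zinc finger protein that protects methylated imprints.
Meg3 chr12:109540746-109540995: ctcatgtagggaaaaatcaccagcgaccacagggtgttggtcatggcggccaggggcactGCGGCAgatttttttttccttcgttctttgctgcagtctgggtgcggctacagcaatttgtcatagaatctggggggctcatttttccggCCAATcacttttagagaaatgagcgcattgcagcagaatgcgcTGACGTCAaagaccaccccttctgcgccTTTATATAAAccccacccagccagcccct
Dlk1 chr12:109452573-109452822: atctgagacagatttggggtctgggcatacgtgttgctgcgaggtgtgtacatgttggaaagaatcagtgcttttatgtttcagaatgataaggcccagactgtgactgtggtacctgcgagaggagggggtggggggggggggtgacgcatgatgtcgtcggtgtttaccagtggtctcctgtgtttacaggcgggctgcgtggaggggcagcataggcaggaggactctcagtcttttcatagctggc
Dio3 chr12:110278980-110279229: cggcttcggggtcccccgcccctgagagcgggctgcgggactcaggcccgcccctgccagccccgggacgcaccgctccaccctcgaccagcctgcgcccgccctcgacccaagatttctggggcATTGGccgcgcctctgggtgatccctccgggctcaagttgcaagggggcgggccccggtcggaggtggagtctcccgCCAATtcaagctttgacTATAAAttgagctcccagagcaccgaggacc

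The Meg3 window held all 4 motifs. Its TGACGTCA began 57 bases before the start, its CCAAT 100 bases before, its ZFP57 core, read on the reverse strand, 190 bases before and its TATAAA 25 bases before, in a run that also matches the reverse strand. Of 32851 promoter windows of the same length, 1.55% held TGACGTCA, 8.68% the ZFP57 core, 12.4% TATAAA and 33.9% CCAAT. The Dlk1 window held none of the 4, and the Dio3 window held 1 TATAAA and 2 CCAAT matches. CpG dinucleotides numbered 10 in the Meg3 window, 8 in the Dlk1 window and 21 in the Dio3 window, against a median of 6 over all windows. Matches to letters say nothing on whether a factor binds.

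Opposite Rtl1, the forward strand, transcribed from the maternal copy, carries 6 miRNA hairpins with 11 annotated mature forms. All lie inside Rtl1 exons and so are fully complementary to its mRNA. They are shown because they are the part of the domain where a maternal and a paternal transcript share bases. Capitals mark the seed, bases 2 to 8, and the 11 seeds are all different. Poly(A) libraries do not measure mature miRNAs, so no levels are given for them.
miR-431-5p: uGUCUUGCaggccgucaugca
miR-431-3p: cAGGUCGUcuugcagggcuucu
miR-433-5p: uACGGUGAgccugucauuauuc
miR-433-3p: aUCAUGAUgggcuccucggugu
miR-127-5p: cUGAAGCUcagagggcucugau
miR-127-3p: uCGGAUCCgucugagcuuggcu
miR-434-5p: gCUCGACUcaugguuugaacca
miR-434-3p: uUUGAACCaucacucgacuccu
miR-432: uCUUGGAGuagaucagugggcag
miR-136-5p: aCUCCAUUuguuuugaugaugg
miR-136-3p: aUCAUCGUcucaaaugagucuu

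Meg3, Rian and Mirg RNA was readily measured in J2WT, J2KO, WT and Pcgf2/4 KO and close to absent in PclWT, TKO and QKO, at both stages. Rtl1, low throughout, showed the same split. Over the 18 libraries of the first 4 lines, Meg3 ranged from 190 to 497 CPM (median 404), and over the 18 libraries of PclWT, TKO and QKO, here called the Pcl lines, from 0 to 10.6 CPM (median 1.26). Rian ranged from 297 to 684 CPM (median 489) against 0.254 to 13.1 CPM (median 2.54). The ranges of the 2 sets of lines lay far apart for both genes. Mirg ranged from 9.55 to 46 CPM against 0 to 1.2 CPM, with 5 Pcl libraries at 0. Rtl1 ranged from 1.75 to 9.02 CPM against 0 to 0.309 CPM, with 11 Pcl libraries at 0. For these 4 genes the lowest library of the first set lay above the highest of the second, by 17.9-fold for Meg3, 22.7-fold for Rian, 7.95-fold for Mirg and 5.64-fold for Rtl1. A separation in this direction was found for 1.94% of the 13365 genes over the minimum, and by more than 10-fold for 0.314%. Mirg and Rtl1 reached the minimum through the first set alone, so only this direction was open to them. Dlk1 and Dio3 overlapped between the 2 sets of lines. The pseudogenes Ftl2-ps and Rps13-ps1 separated the same sets, at means of 55.9 and 74.3 CPM against 0.0559 and 0.0555 CPM. Read length and trimming of the library sets are not given in the sources used here, and whether reads or their mapping differ between the sets was not tested.

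**Figure D1:**
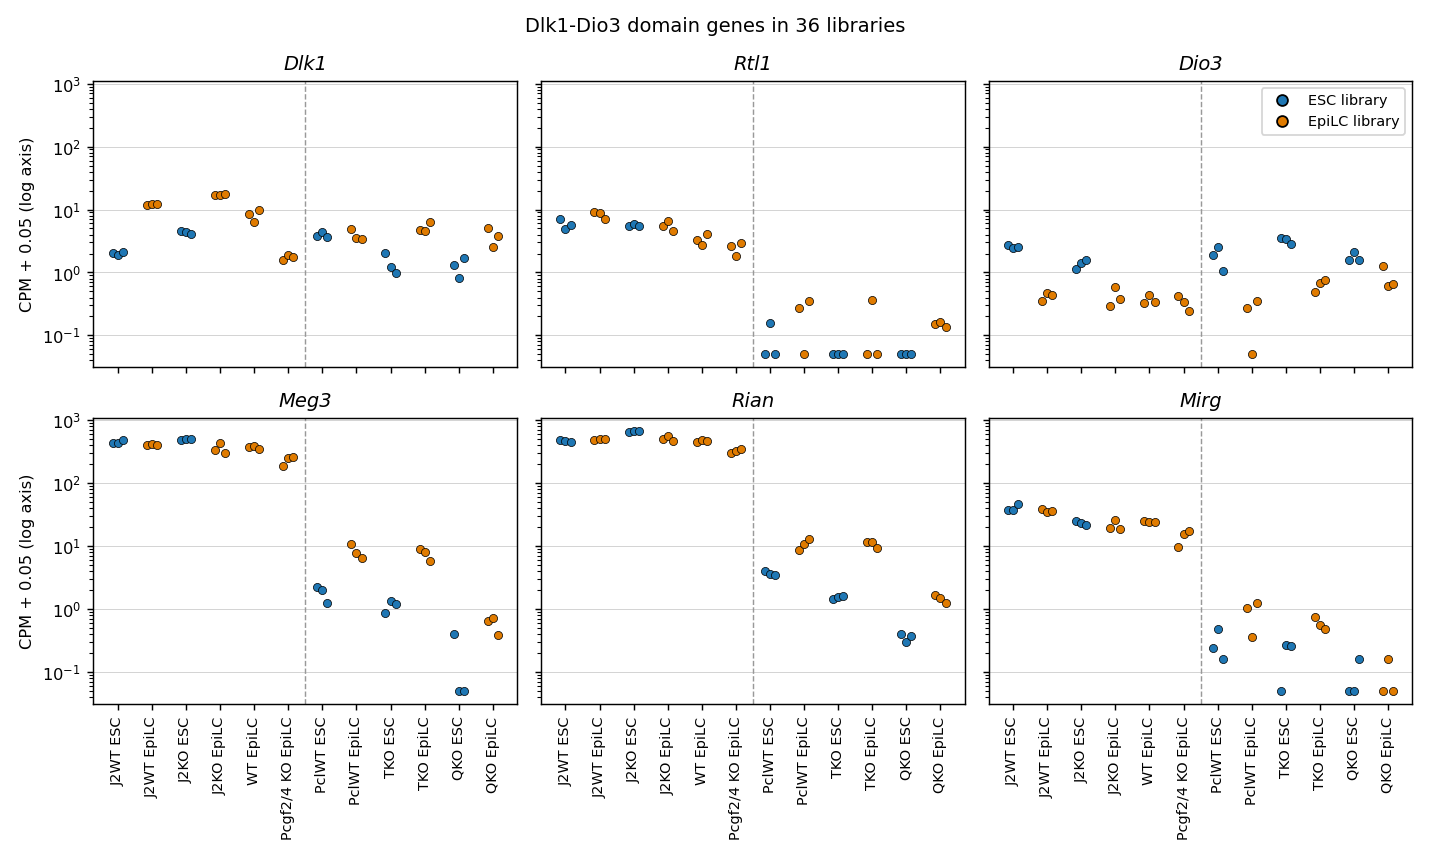
Level of each member in all 36 libraries as CPM + 0.05 on a log axis, by group, with ESC libraries in blue, EpiLC libraries in orange and a dashed line between the first 4 lines and the Pcl lines. Meg3, Rian, Mirg and Rtl1 drop to the right of the line, to at most 10.6, 13.1, 1.2 and 0.309 CPM, while Dlk1 and Dio3 overlap across it.

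The wild types were compared directly, at each stage. In ESCs, the 3 J2WT libraries held 428, 436 and 483 CPM of Meg3 and the 3 PclWT libraries 2.23, 1.93 and 1.22 CPM. All J2WT libraries lay far above all PclWT libraries. The log2 fold change of PclWT over J2WT was -7.94 for Meg3 (standard error, SE, 0.11, edgeR adjusted p = 4.59e-16), and by counts Meg3 was 247 times lower (PclWT at 0.00405 of J2WT, with an exact 95% interval from 0.00302 to 0.00531 for counting error only). Rian was at 495, 464 and 455 CPM in J2WT and at 3.98, 3.53 and 3.45 CPM in PclWT, a log2 fold change of -7.00 (SE 0.08, edgeR adjusted p = 1.5e-16). For Mirg it was -7.31 (edgeR adjusted p = 2.18e-12) and for Rtl1 -7.03 (edgeR adjusted p = 9.1e-09), with 7 and 1 counts over the 3 PclWT libraries and 1910 and 278 over those of J2WT. With 1 library left out these ran from -7.92 to -7.01 for Mirg and from -9.29 to -6.53 for Rtl1, so the size for Rtl1 is poorly fixed. Of the 6 members tested, these 4 were lower, against 13.9% of all 13219 genes tested. By log2 fold change, Meg3 stood 30th from the lowest, and Mirg, Rtl1 and Rian 36th, 39th and 41st. Mirg and Rtl1, with 7 and 1 PclWT counts, reached the minimum only through J2WT. They could only come out lower, so neither the share nor their ranks lend separate weight.

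At the outer ends of the domain the wild types were much closer in ESCs. Dlk1 was at 1.99, 1.87 and 2.08 CPM in J2WT and at 3.78, 4.28 and 3.56 CPM in PclWT, higher in each PclWT library, with a log2 fold change of 0.96 (SE 0.18, edgeR adjusted p = 0.000177) that lies just under the limit of 1, at 1.02 with DESeq2 or RLE normalization and at 1.01 without PclWT ESC replicate 3. Dio3 was at 2.68, 2.39 and 2.46 CPM in J2WT and at 1.84, 2.46 and 1.0 CPM in PclWT, where the groups overlapped (edgeR adjusted p = 0.0882). The nearest 4 protein-coding genes on each side were Slc25a47, Wars, Wdr25 and Begain before Dlk1 and Ppp2r5c, Dync1h1, 1700001K19Rik and Hsp90aa1 after Dio3. Of these, 7 were tested, and their log2 fold changes ran from -1.13 to 0.33 in ESCs and from -1.04 to 0.92 in EpiLCs. Only Ppp2r5c, a phosphatase subunit gene, in ESCs and Hsp90aa1, an HSP90 gene, in EpiLCs passed the limits, both lower in PclWT.

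In EpiLCs the gap between the wild types was again large, though reads of the maternal genes were more frequent in PclWT. Meg3 was at 410, 414 and 398 CPM in J2WT and at 10.6, 7.78 and 6.41 CPM in PclWT, a log2 fold change of -5.65 (SE 0.21, edgeR adjusted p = 1.84e-05). The fold changes were -5.54 for Rian, -5.48 for Mirg and -5.53 for Rtl1 (edgeR adjusted p = 1.36e-05, 4.72e-05 and 0.000147). Dlk1, at 11.9, 12.2 and 12.1 CPM in J2WT and 4.81, 3.48 and 3.4 CPM in PclWT, had a log2 fold change of -1.66 (SE 0.16, edgeR adjusted p = 0.000342). All 5 members tested were lower in PclWT, against 11.3% of the 13484 genes tested, and Dio3 was under the minimum with 18 and 5 counts. Mirg and Rtl1, at 24 and 5 PclWT counts, reached the minimum only through J2WT and could only come out lower. Without PclWT EpiLC replicate 1, the log2 fold changes were -5.87 for Meg3, -5.38 for Rian, -5.6 for Mirg, -5.71 for Rtl1 and -1.83 for Dlk1.

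**Figure D2:**
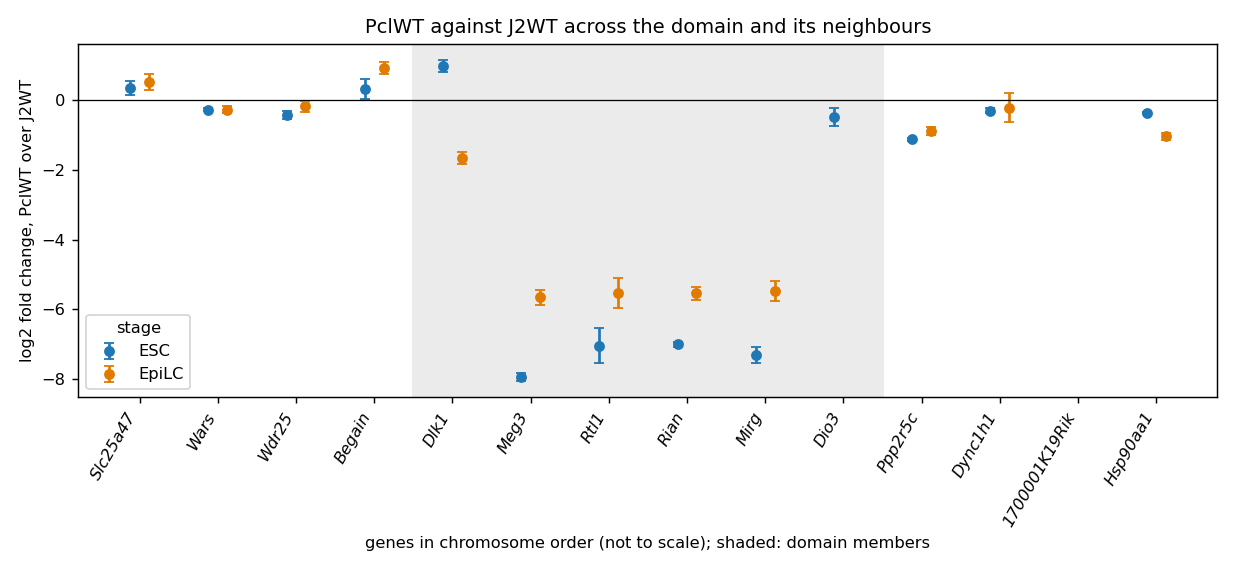
Log2 fold change of PclWT over J2WT (points) with its standard error (bars), in ESCs (blue) and EpiLCs (orange), for the members (shaded) and the nearest protein-coding genes, in chromosome order and not to scale. Meg3, Rtl1, Rian and Mirg lie between -7.94 and -5.48 while tested neighbours lie between -1.13 and 0.92. A gene without a point was under the count minimum.

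Other cell types and stage markers also differed between the wild types. The summed level of 6 formative and primed genes was 3030 to 3110 CPM in J2WT EpiLCs and 584 to 634 CPM in PclWT EpiLCs. The summed level of 4 neuroectoderm genes was 46.3 to 50.3 CPM in J2WT ESCs and 122 to 135 CPM in PclWT ESCs, and it separated the sets of lines as the maternal RNAs did but in the other direction, at 41.2 to 72.3 CPM against 76.2 to 166 CPM in the Pcl lines. Most of it was Tubb3, a neuronal tubulin gene, which stood at 32.6 CPM in ESCs of J2WT and 128 CPM in those of PclWT, while Sox1 was at 14.8 and 0.633 CPM. In fibroblasts Meg3 is also high. The summed level of 8 fibroblast markers was 3.55 to 4.51 CPM in J2WT ESCs and 11.4 to 12.5 CPM in PclWT ESCs, the opposite direction to Meg3, and 23.9 to 26.1 against 13.5 to 14.1 CPM in EpiLCs. Of these 8 genes, 2 were tested in ESCs, both called higher in PclWT, against 11.1% of all genes. In EpiLCs 4 were tested, with 1 higher and 2 lower, against 11.6% and 11.3%. As examples from J2WT only, Col3a1 was at 0.0847 CPM in ESCs and Lum at 0.274 CPM, while Dcn was at 7.48 CPM in EpiLCs. The part of these markers in the values of the members was not tested. In bulk RNA, fewer cells that make a transcript and less of it per cell cannot be told apart.

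Genes that keep or set imprints differed in both directions between the wild types. Over all genes tested, 11.1% were called higher and 13.9% lower in PclWT ESCs, and 11.6% and 11.3% in EpiLCs. Of 9 imprint maintenance genes tested in ESCs, 1 was higher and 1 lower in PclWT, with a median log2 fold change of -0.14 (-0.50 in EpiLCs). Setdb1, a histone methyltransferase gene, had a log2 fold change of -1.21, and Dppa3, which protects the maternal genome from demethylation, one of 3.34. In EpiLCs Trim28 was at -1.17 and Uhrf1 at -1.32, Dppa3 was at 3.85, and the other 6 did not pass. Dnmt3a, a de novo methyltransferase gene, was higher in PclWT ESCs (log2 fold change 2.40), and Dnmt3b was lower there (-1.28) and in EpiLCs (-2.39). Dnmt3l, their cofactor gene, was also lower in PclWT EpiLCs (-1.06). Aff3, which codes for a protein that binds the IG-DMR, was higher in PclWT ESCs (2.25) and lower in EpiLCs (-1.10). Of 5 listed regulators of the domain, only Aff3 passed in ESCs, and 2 were lower in EpiLCs. Of 4 methylcytosine oxidation genes, Tdg was higher in PclWT ESCs (1.47) and none passed in EpiLCs. Outside the domain, imprinted genes moved both ways. Of 12 paternally expressed genes tested in ESCs, 3 were higher and 4 lower in PclWT, with a median log2 fold change of -0.85, and of 7 maternally expressed genes 5 were higher and 1 lower, with a median of 2.35, against a median of -0.09 over all genes. In EpiLCs 3 of 13 paternally expressed genes were higher and 5 lower, and 3 of 7 maternally expressed genes were higher and 2 lower, with medians of -0.60 and 0.72 against -0.08 over all genes. H19, a maternally expressed RNA of another domain, was at 3.07 in ESCs and -1.51 in EpiLCs.

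Within the J2 lines and the Pcgf set, the proportions of the maternal RNAs differed between lines by less than their levels did between the sets of lines. Per kilobase of exon, Rian and Meg3 were at like levels in J2WT ESCs, at 25.1 and 24 RPKM, with Mirg at 5.35, Dio3 at 1.2, Rtl1 at 0.891 and Dlk1 at 0.339. For every 100 Meg3 counts there were 106 ± 10.7 Rian counts in J2WT ESCs, 122 ± 3.52 in J2WT EpiLCs, 135 ± 3.06 in J2KO ESCs, 146 ± 14.5 in J2KO EpiLCs, 124 ± 6.58 in WT and 140 ± 14.4 in Pcgf2/4 KO (SD, n = 3). Mirg counts per 100 of Meg3 were 8.95 ± 0.513 in J2WT ESCs, 9 ± 0.452 in J2WT EpiLCs, 4.68 ± 0.435 in J2KO ESCs, 6 ± 0.149 in J2KO EpiLCs, 6.56 ± 0.276 in WT and 5.94 ± 0.847 in Pcgf2/4 KO (SD, n = 3). Relative to Meg3, Mirg was lower and Rian higher in J2KO than in J2WT at both stages, with no overlap of libraries. Over the 12 group means of log2(CPM + 1), the Pearson correlation was 0.999 between Meg3 and Rian, 0.984 between Meg3 and Mirg, 0.956 between Meg3 and Rtl1 and 0.5 between Meg3 and Dlk1. These points share lines and library sets, and the first 3 values follow from the separation of the Pcl lines. Replicate 2 was the highest and replicate 3 the lowest of J2KO EpiLCs for Meg3, Rian, Mirg and Rtl1 alike, with Meg3 at 333, 438 and 302 CPM and Mirg at 19.5, 26.4 and 18.6 CPM.

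From ESC to EpiLC, the maternal RNAs changed little in lines that make them, while Dlk1 and Dio3 moved in opposite directions. In J2WT, Meg3 had a log2 fold change of -0.13 (edgeR adjusted p = 0.00494), Rian of 0.08 (0.0381), Mirg of -0.12 (0.0964) and Rtl1 of 0.51 (0.00117), all within 2-fold. Dlk1 rose from 1.98 ± 0.105 to 12.1 ± 0.133 CPM (SD, n = 3), a log2 fold change of 2.61 (SE 0.13, edgeR adjusted p = 1.2e-15). Dio3 fell from 2.51 to 0.372 CPM, a log2 fold change of -2.72 (SE 0.28, edgeR adjusted p = 2.53e-09). Of the 6 members tested, 1 was higher and 1 lower, against 15.2% and 15% of the 13877 genes tested. Dio3 reached the minimum only through ESCs, so it could only come out lower. In J2KO, Meg3 and Rian were lower in EpiLCs by less than 2-fold (log2 fold changes -0.46 and -0.37, edgeR adjusted p = 5.46e-09 and 1.95e-11). Dlk1, the 1 call among 5 members tested there, against 15% of genes called higher, rose from 4.34 to 17.2 CPM (log2 fold change 1.99, edgeR adjusted p = 3.44e-20). Dio3 counts in J2KO were 63 in ESCs and 18 in EpiLCs, or 0.285 of the ESC level (exact 95% interval from 0.159 to 0.487).

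In the Pcl lines, the few reads of Meg3 and Rian became more frequent in EpiLCs. In PclWT, Meg3 counts were 23, 18 and 11 in ESCs and 97, 76 and 64 in EpiLCs, and every EpiLC library lay above every ESC library. The log2 fold change was 2.16 (SE 0.29, edgeR adjusted p = 0.00197), and for Rian 1.54 (edgeR adjusted p = 0.00165). With replicate numbers as a block they were 2.17 and 1.52, and without EpiLC replicate 1 they were 1.96 and 1.71. In TKO, Meg3 counts of 8, 12 and 11 became 102, 77 and 41, and Meg3 and Rian rose by 2.86 and 2.88 on the log2 scale (edgeR adjusted p = 1.15e-08 and 2.28e-10). Even so, the TKO EpiLC libraries reached only 9.08, 7.94 and 5.82 CPM of Meg3. Of 3 members tested, 2 were higher in PclWT EpiLCs and of 4 in TKO, 3 were higher and 1 lower, against 8.68% of genes higher in PclWT and, in TKO, 13.8% higher and 8.74% lower. All 4 in TKO were under the minimum in the group where they were low, so the direction of each was fixed. The stage change of PclWT differed from that of J2WT by 2.3 for Meg3 (SE 0.26, edgeR adjusted p = 3.1e-05) and by 1.48 for Rian (edgeR adjusted p = 7.3e-05). With Dlk1 and Mirg, 4 of 6 members passed this test, against 42.8% of all genes. For Mirg it was 1.84 (edgeR adjusted p = 0.0265), a call lost without PclWT ESC replicate 1, ESC replicate 3 or EpiLC replicate 3 (1.69, 1.53 and 1.46). Without PclWT EpiLC replicate 1 the differences were 2.09 for Meg3, 1.63 for Rian and 1.72 for Mirg. A change from 1.79 to 8.26 CPM of Meg3 in PclWT is small beside the 407 CPM of J2WT EpiLCs.

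QKO had the fewest reads of the maternal genes. Over 3 libraries, QKO ESCs held 3 Meg3 counts, all in replicate 1, and 8 Rian counts, and QKO EpiLCs held 16 and 43. Meg3 was at 0.608, 0.678 and 0.342 CPM in QKO EpiLCs, under every TKO and PclWT EpiLC library. The log2 fold change of QKO over TKO EpiLCs was -3.87 for Meg3 (SE 0.29, edgeR adjusted p = 2.38e-10) and -2.96 for Rian (SE 0.20, edgeR adjusted p = 3.66e-11). Against PclWT EpiLCs they were -3.95 and -2.94 (edgeR adjusted p = 0.000401 and 0.000337), and -3.75 and -3.1 without PclWT EpiLC replicate 1. Without QKO EpiLC replicate 2 they were -4.06 and -2.99 over TKO and -4.12 and -2.96 over PclWT. In each of these comparisons 2 of 3 members tested were lower, against 3.3% of genes tested for QKO over TKO and 7.22% for QKO over PclWT. Meg3 and Rian, at 16 and 43 counts over 3 QKO EpiLC libraries, reached the minimum of 15 only through TKO or PclWT. They could only come out lower, so these shares lend no separate weight. In ESCs, Rian was lower in QKO than in PclWT by a log2 fold change of -3.5 (SE 0.32, edgeR adjusted p = 5.88e-08), with Dlk1 also lower, so 2 of 3 members tested were lower, against 7.66% of genes. Both reached the minimum only through PclWT, so no other direction was open to them. Meg3, under the minimum there, had 3 counts against 52, or 0.0643 of the PclWT level (exact 95% interval from 0.0128 to 0.199). Stage markers moved as well. Naive genes summed to 898 to 934 CPM in QKO EpiLCs and 402 to 445 CPM in TKO EpiLCs. Of these 8 genes, 5 were called higher in QKO, against 615 of all 12762 genes called in either direction, of which 421 were lower. Formative genes summed to 347 to 404 against 753 to 797 CPM, mostly Dnmt3b at 214 against 566 CPM. Primitive endoderm genes summed to 54.8 to 59.1 against 141 to 148 CPM. The part of these markers in the Meg3 and Rian values was not tested. QKO and TKO were compared with the same PclWT libraries, so their values are not independent, and QKO came from a different laboratory than TKO, so JARID2 loss and line cannot be told apart.

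**Figure D3:**
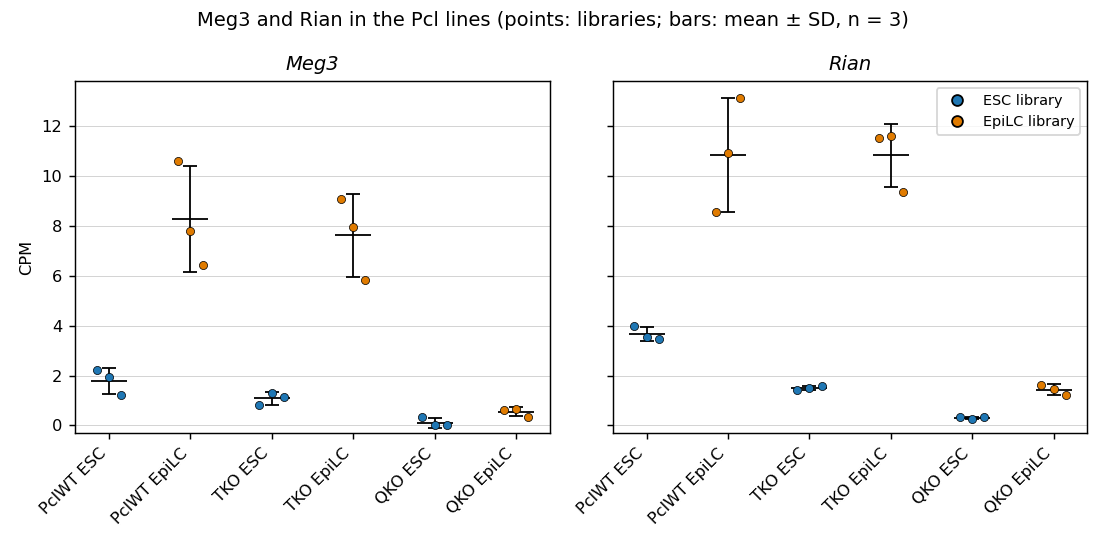
Meg3 and Rian levels in CPM in the Pcl lines, by group, as libraries (points) with mean ± SD (bars, n = 3), ESCs in blue and EpiLCs in orange. Both genes are higher in EpiLCs than in ESCs of PclWT and TKO, and QKO EpiLCs stay below 2 CPM in each library.

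TKO and PclWT EpiLCs were close at Meg3, Rian and Dlk1. Here 0 of 3 members tested passed, with log2 fold changes over PclWT of -0.14 for Meg3, -0.04 for Rian and 0.34 for Dlk1 (edgeR adjusted p = 0.705, 0.899 and 0.273, lowest unadjusted p = 0.167, and 0 passing with DESeq2), against 14.1% of all genes in either direction. Without PclWT EpiLC replicate 1 Meg3 was at 0.13, Rian at -0.15 and Dlk1 at 0.53. Under the minimum, Mirg and Rtl1 overlapped between the groups. Dio3 did not, with 16 counts in TKO and 5 in PclWT EpiLCs, 3.3 times the PclWT level (exact 95% interval from 1.16 to 11.5). In ESCs, Rian was at 1.41, 1.52 and 1.57 CPM in TKO and 3.98, 3.53 and 3.45 CPM in PclWT, or -1.31 on the log2 scale (SE 0.23, edgeR adjusted p = 6.31e-05). Rian and Dlk1 were the 2 members lower of 3 tested, against 7.09% of genes. Both reached the minimum only through PclWT, so only this direction was open to them. For Rian, the TKO effect in EpiLCs differed from that in ESCs by 1.27 (edgeR adjusted p = 0.0114), and by 1.15 without PclWT EpiLC replicate 1. Rian and Dlk1 were the 2 of 3 members that passed this test, against 15.3% of all genes.

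Dlk1 depended on stage, line and mutant. Its 12 group means ran from 1.22 CPM in QKO ESCs to 17.2 CPM in J2KO EpiLCs, and J2KO, J2WT and WT EpiLCs, in this order, did not overlap with each other or with the next group. From TKO EpiLCs through J2KO ESCs, PclWT EpiLCs and PclWT ESCs to QKO EpiLCs, at 5.13 to 3.71 CPM, each neighbour in the order overlapped the next. In PclWT, Dlk1 was at 3.87 ± 0.368 CPM in ESCs and 3.9 ± 0.793 CPM in EpiLCs (SD, n = 3), with a log2 fold change of -0.02 (edgeR adjusted p = 0.952), and its stage change differed from that of J2WT by -2.62 (SE 0.20, edgeR adjusted p = 1.91e-06). Without PclWT EpiLC replicate 1 these values were -0.17 and -2.78. TKO and QKO started lower and rose. TKO libraries held 2.02, 1.19 and 0.942 CPM in ESCs and 4.63, 4.53 and 6.24 CPM in EpiLCs, a log2 fold change of 1.86 (SE 0.26, edgeR adjusted p = 4.34e-06), and QKO rose by 1.58 (SE 0.30, edgeR adjusted p = 4.25e-05), the 1 member tested there, against 11.9% of genes higher (1.78 without EpiLC replicate 2). In both lines Dlk1 reached the minimum only through EpiLCs, so only a rise could be called.

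In ESCs, Dlk1 in TKO and QKO was lower than in PclWT, with log2 fold changes of -1.49 and -1.62 (edgeR adjusted p = 5.5e-05 and 3.19e-05). In EpiLCs neither mutant passed, at 0.34 for TKO and -0.07 for QKO. Without PclWT EpiLC replicate 1 these were 0.53, with an edgeR adjusted p of 0.0362 but under 2-fold, and 0.09, and without QKO EpiLC replicate 2 the QKO value was 0.13. The difference between stages was 1.84 for TKO (edgeR adjusted p = 0.00421) and 1.59 for QKO (edgeR adjusted p = 0.0208), and for QKO Dlk1 was the 1 of 3 members that passed, against 16.2% of all genes. This last call was lost without PclWT ESC replicate 2, QKO ESC replicate 1 or 2, or QKO EpiLC replicate 1 or 3, at values of 1.29 to 1.61. Without PclWT EpiLC replicate 1 the differences were 2.01 for TKO and 1.72 for QKO, and without QKO EpiLC replicate 2 that of QKO was 1.80. Primitive endoderm markers, 8 genes with a summed level of 15.6 to 22.1 CPM in PclWT EpiLCs, stood at 141 to 148 CPM in TKO EpiLCs and 54.8 to 59.1 CPM in QKO EpiLCs. Their part in the Dlk1 values was not tested.

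JARID2 loss in the J2 background went with more Dlk1. J2KO ESC libraries held 4.57, 4.34 and 4.11 CPM against 1.99, 1.87 and 2.08 CPM in J2WT, with no overlap and a log2 fold change of 1.14 (SE 0.16, edgeR adjusted p = 2.02e-06). Dlk1 was the 1 member of 6 that passed both limits in ESCs, against 7.01% of genes called higher, and in EpiLCs 0 of 5 passed both limits in edgeR or DESeq2, against 8.85% of all genes in either direction. In EpiLCs Dlk1 was at 16.9, 17.1 and 17.7 CPM in J2KO and 11.9, 12.2 and 12.1 CPM in J2WT, a log2 fold change of 0.53 (edgeR adjusted p = 8.15e-07), under 2-fold. By a test of the difference, the effect on Dlk1 in EpiLCs differed from that in ESCs by -0.63 (edgeR adjusted p = 0.00263). Differences of this kind passed for 4 of 6 members, against 54.1% of all genes, all under 2-fold. With DESeq2 those of Meg3 and Rtl1 did not pass (adjusted p = 0.114 and 0.0694). Mirg was lower in J2KO at both stages, at log2 fold changes of -0.78 and -0.75 (edgeR adjusted p = 2.64e-08 and 6.59e-09), while Rian was at 0.51 in ESCs (edgeR adjusted p = 4.78e-11). Meg3 differed by 0.15 in ESCs and -0.17 in EpiLCs, and the latter did not pass with DESeq2 (adjusted p = 0.329). Rtl1 was at -0.55 in EpiLCs (edgeR adjusted p = 0.000637) and Dio3 at -0.92 in ESCs (edgeR adjusted p = 0.000463), and at -1.04 without J2KO ESC replicate 3. At an adjusted p under 0.05 alone, 5 of 6 members passed in ESCs and 4 of 5 in EpiLCs, against 70.9% and 65.2% of all genes.

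Dlk1 was the member that differed most in Pcgf2/4 KO. WT EpiLC libraries held 8.41, 6.36 and 9.68 CPM and Pcgf2/4 KO libraries 1.51, 1.84 and 1.73 CPM, with every mutant library far below every WT library. The log2 fold change was -2.24 (SE 0.20, edgeR adjusted p = 1.74e-12), and Dlk1 was the 1 member of 5 tested that passed both limits, against 3.84% of genes called lower. The maternal RNAs were lower by less than 2-fold. Meg3 was at 383, 389 and 354 CPM in WT and 190, 253 and 260 CPM in the mutant, with no overlap and a log2 fold change of -0.66 (SE 0.06, edgeR adjusted p = 7.83e-13). Rian was at -0.50 and Mirg at -0.78 (edgeR adjusted p = 6.51e-13 and 1.58e-07), and Rtl1 at -0.43 did not pass (edgeR adjusted p = 0.107). At an adjusted p under 0.05 alone 4 of 5 members passed, against 56.9% of all genes. The 6 neighbours tested had log2 fold changes of -0.39 to 0.21. Fibroblast markers were also lower in the mutant, at a summed 3.5 to 5.09 CPM against 18.3 to 20.7 CPM, led by Dcn at 0.223 against 3.97 CPM and Thy1 at 2.65 against 11 CPM, with Col3a1 and Lum at 0 in both, and their part in these values was not tested. Stage markers moved too. Naive genes summed to 473 to 543 CPM in the mutant against 251 to 254 CPM in WT. Of these 8 genes, 6 were called higher, against 740 of all 12754 genes called in either direction, of which 490 were lower. Formative genes summed to 1680 to 1760 against 2960 to 2990 CPM, mostly Dnmt3b at 1130 against 2180 CPM. Primitive endoderm genes summed to 33.5 to 36 against 11.5 to 14.1 CPM. The part of the stage in the Dlk1 value was not tested. Of 9 imprint maintenance genes only Dppa3 passed, and it was lower (log2 fold change -2.78). Aff3 was the only 1 of 5 listed regulators of the domain that passed, also lower (-1.94). Among 4 methylcytosine oxidation genes only Tet2 passed, and it was higher (1.47). The list medians were 0.07, 0.011 and -0.06, and 0 of 3 de novo methylation genes passed.

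**Figure D4:**
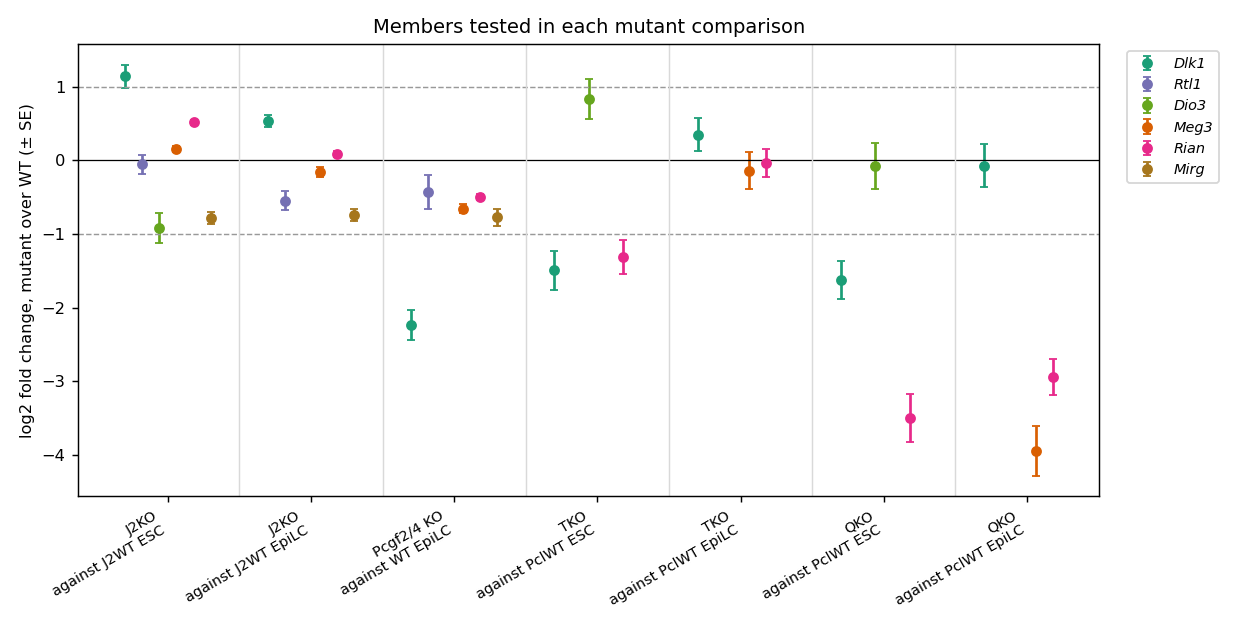
Log2 fold change of each mutant over its matched wild type (points) with its standard error (bars) for every member over the count minimum, with dashed lines at a log2 fold change of 1 and -1. Dlk1 reaches 1.14 in J2KO ESCs and -2.24 in Pcgf2/4 KO EpiLCs, and Meg3 and Rian reach -3.95 and -3.5 in QKO.

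Dio3 was lower in EpiLCs than in ESCs in every line measured at both stages, but this was called only in J2WT and TKO. In J2KO, PclWT and QKO it rests on ratios of few counts. Its highest group was TKO ESCs, at 3.53, 3.37 and 2.83 CPM, above every library of the other groups. J2WT, PclWT, QKO and J2KO ESCs followed, each overlapping the next. TKO libraries did not overlap those of PclWT, but the log2 fold change of 0.83 was under 2-fold (edgeR adjusted p = 0.0107), and without PclWT ESC replicate 2, at 2.46 CPM, it was 1.12. In TKO EpiLCs Dio3 fell by 2.45 on the log2 scale (SE 0.30, edgeR adjusted p = 9.57e-07). In PclWT, 51 counts in ESCs became 5, or 0.0972 of the ESC level (exact 95% interval from 0.0303 to 0.242), and in QKO 43 became 24, or 0.472 (exact 95% interval from 0.274 to 0.795). QKO ESCs were at 1.51, 2.03 and 1.52 CPM, below all TKO ESC libraries, with a log2 fold change over TKO of -0.96 (edgeR adjusted p = 0.00314). It was the 1 member tested in that comparison and lay under the 2-fold limit, which 4.59% of genes passed, while it passed without TKO ESC replicate 3 (-1.03) or QKO ESC replicate 2 (-1.09). WT and Pcgf2/4 KO EpiLCs held 10 and 9 Dio3 counts. PclWT EpiLCs, at 5 counts, lay below TKO EpiLCs at 16 and QKO EpiLCs at 24, without overlap of libraries. By counts, TKO and QKO were at 3.3 and 4.56 times PclWT (exact 95% intervals 1.16 to 11.5 and 1.71 to 15.3).

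**Figure D5:**
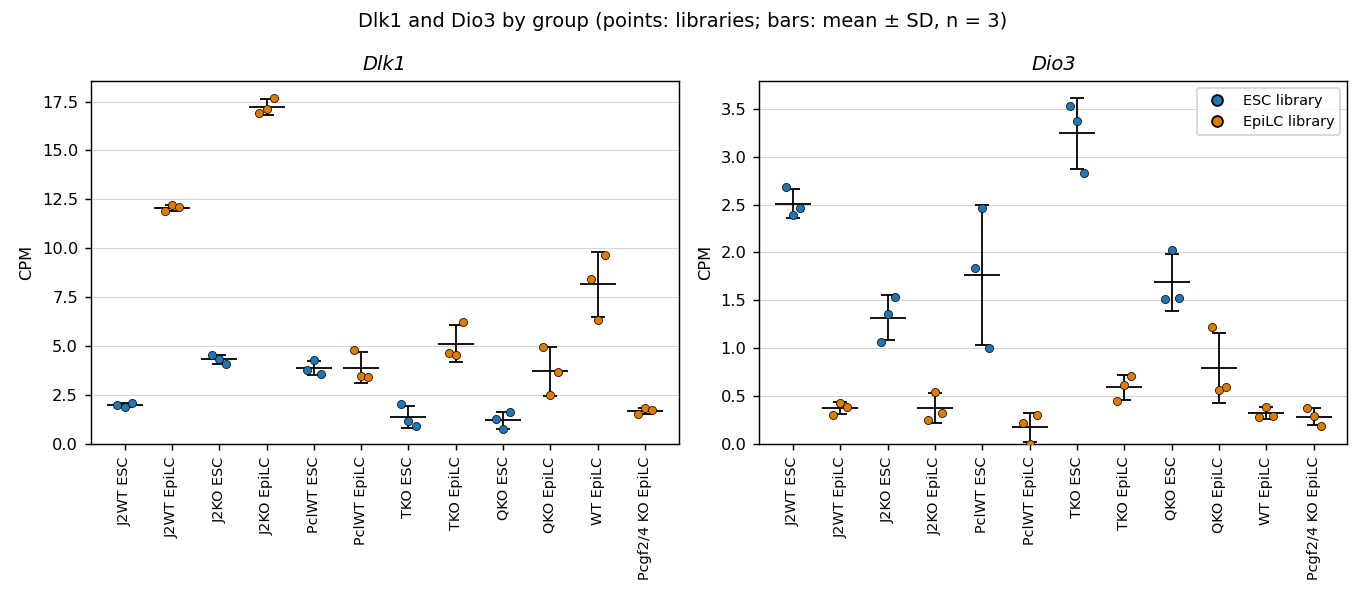
Dlk1 and Dio3 levels in CPM by group, as libraries (points) with mean ± SD (bars, n = 3), ESCs in blue and EpiLCs in orange. Dlk1 is highest in J2KO and J2WT EpiLCs, at 17.2 and 12.1 CPM, and Dio3 is lower in EpiLCs than in ESCs of each of the 5 lines.

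Other genes of the domain showed this split as far as Mirg, but not clearly beyond it. Between the Dlk1 and Dio3 starts, 110 further genes are annotated, of which 46 had a count and 3 reached 15 counts in a library. The J2 lines and the Pcgf set were sequenced more deeply, with 10403211 to 18026492 counts per library against 6784578 to 11253158 in the Pcl lines. The 97 genes up to the end of Mirg held 842 counts in the former and 3 in the latter, or 3.31 and 0.0176 CPM over all libraries of each set. The 13 genes from there to Dio3 held 89 and 40 counts, or 0.349 and 0.235 CPM. Among these, chosen after their values were seen, Dio3os, a transcript next to Dio3 on the other strand, had 26 and 18 counts, or 0.102 and 0.106 CPM, and the pseudogene Gm3379 had 48 and 14 counts, or 0.188 and 0.0822 CPM. Reads over 67 miRNA genes numbered 163 and 1, and over 23 snoRNA genes 65 and 0. The non-coding RNA Gm34081, between Dlk1 and Meg3 on the reverse strand, had 212 counts in the former and 0 in the latter. It was lower in J2KO than in J2WT at both stages, with log2 fold changes of -1.42 and -1.22 (edgeR adjusted p = 0.000376 and 0.00107). B830012L14Rik, between Rian and Mirg, had 1 count in the Pcl lines out of 234, and Gm37899 had 1 of 159.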

How the data were processed

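Poly(A) RNA of 36 libraries was sequenced. Reads were aligned to GRCm38 with STAR by the authors, who deposited the read counts of each gene without normalization. The labels also list FastQC, DESeq2 and deepTools. The column without strand was used, and rows that name no gene were left out. Symbols and positions came from a GENCODE annotation of GRCm38, with 55141 of 55401 identifiers matched, and sequences from RefSeq (GRCm38.p6).

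Levels are CPM with TMM factors over all libraries, and RPKM uses the union of exons. Comparisons used edgeR 4.0.16 (R 4.3.3) and its quasi-likelihood test, fitted to the libraries of each comparison for all genes whose mean normalized count reached 15, with Benjamini-Hochberg adjustment over all genes tested. A call needed an adjusted p under 0.05 together with a log2 fold change above 1 in size. Between groups, a gene that reaches the minimum through 1 group alone can only be called higher in that group. Contrasts of 4 groups tested differences between effects, and below the minimum, counts were compared as ratios with exact 95% intervals, which cover counting error only. A group at 0 allows up to 3 counts. Members, lists and tests were chosen with earlier results of these data known. Named beside the members were genes of those lists that passed or that a result turns on, genes of the domain reaching 15 counts in a library, the nearest 4 protein-coding genes on each side, and the genes with the most similar pattern.

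In PclWT, ESC and EpiLC libraries of the same number deviated together, at correlations across genes of 0.457, 0.245 and 0.209, all over a limit of 0.1. With libraries of other numbers the highest correlations were -0.224, 0.194 and 0.258. EpiLC replicate 3 was thus closer to an ESC library of another number, and pairing is not established. These correlations come from the data alone, and no other comparison of a line's stages or of a mutant had all 3 same-number values over the limit. On simulated counts with 100 genes at each size, edgeR recovered 85.4% to 100% of those at a log2 fold change of 1.5 over 16 comparisons, on 12169 to 13877 genes. Replicates of every group differed by more than sampling noise. Alternatives were DESeq2 1.42.0, RLE normalization, no count filter, counts of both strand columns, a replicate block, all libraries of a line family in one fit, and each library left out. Figures were drawn in Python 3.11.15. ChIP-seq and proteomic data of the study were not analysed here.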

Additional observations from a re-analysis of the deposited data

Results flagged for a closer look

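The effect of a mutant differed between stages, or the stage change between wild types, for several members by a test of the difference itself in edgeR. The J2KO effect in EpiLCs minus that in ESCs was a log2 difference of -0.63 for Dlk1 (adjusted p = 0.00263), -0.34 for Meg3 (adjusted p = 0.00297), -0.52 for Rtl1 (adjusted p = 0.0268) and -0.46 for Rian (adjusted p = 7.2e-08), all under 2-fold. For Dlk1 and Rian the effect was above 0 in ESCs and nearer to 0 in EpiLCs, for Meg3 it went from 0.15 to -0.17, and for Rtl1 from -0.06 to -0.55. With DESeq2 the differences of Meg3 and Rtl1 did not pass (adjusted p = 0.114 and 0.0694), and that of Rtl1 was lost in 6 of 12 fits that left out 1 library. The TKO effect was higher in EpiLCs by 1.84 for Dlk1 (adjusted p = 0.00421) and 1.27 for Rian (adjusted p = 0.0114), and the QKO effect by 1.59 for Dlk1 (adjusted p = 0.0208). Both share the PclWT libraries. The stage change of PclWT differed from that of J2WT by -2.62 for Dlk1 (adjusted p = 1.91e-06), 2.3 for Meg3 (adjusted p = 3.1e-05), 1.48 for Rian (adjusted p = 7.3e-05) and 1.84 for Mirg (adjusted p = 0.0265).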

How the results depend on the processing

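The separation of the wild types at Meg3, Rian, Mirg and Rtl1 and the QKO deficit of Meg3 and Rian in EpiLCs kept their direction and their call under every alternative run. Without TMM factors, or with both strand columns, 22 group levels of members moved by over 1 SD and 122 by less. Levels under 15 counts rest on few reads, and Meg3 in QKO ESCs rests on 3 counts in 1 library. Depth therefore limits what can be said of Mirg, Rtl1 and Dio3 in the Pcl lines. With DESeq2, changes that no longer passed an adjusted p of 0.05 were Meg3 in J2KO EpiLCs (-0.18) and the J2KO effect between stages on Meg3 (-0.32) and Rtl1 (-0.5). In one fit of a line family, the J2WT stage change of Meg3 (-0.13) and Rian (0.08) no longer passed, and values near 0 changed sign for Rtl1 between J2KO stages (-0.01) and Rian in TKO EpiLCs (0.01). With both strand columns Rian in J2WT (0.07) no longer passed. With no count filter Rian in J2KO EpiLCs passed (0.08), as it did with a replicate block (0.08), and the block also took the J2WT stage change of Rian (0.08) past 0.05. In PclWT, where pairing by number is possible but not established, the block changed no call, with Meg3 at 2.17 and Rian at 1.52. Elsewhere the samples share only a number, and beyond the 2 Rian values the block moved no member across 0.05. The causes were not tested.

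Leaving out 1 library in turn changed the sign, or the side of an adjusted p of 0.05, of 20 values, whose ranges follow, none of them over 1 in size with all libraries except the last 2. Stage changes were -0.19 to -0.02 for Mirg and 0.05 to 0.11 for Rian in J2WT, -0.28 to -0.01 for Mirg and -0.13 to 0.12 for Rtl1 in J2KO, and -0.17 to 0.07 for Dlk1 in PclWT. J2KO over J2WT gave -0.16 to 0.1 for Rtl1 in ESCs and, in EpiLCs, -0.35 to -0.08 for Meg3 and -0.0 to 0.12 for Rian. TKO over PclWT gave 0.57 to 1.12 for Dio3 in ESCs and, in EpiLCs, 0.2 to 0.53 for Dlk1, -0.28 to 0.13 for Meg3 and -0.15 to 0.13 for Rian. For Dlk1, QKO EpiLCs gave -0.34 to 0.13 over PclWT and -0.68 to -0.25 over TKO. Dio3 in PclWT over J2WT ESCs gave -0.78 to -0.24. Differences between stages of the J2KO effect ran from -0.67 to -0.41 for Rtl1 and from -0.16 to 0.11 for Mirg, and of the QKO effect from -0.69 to 3.21 for Meg3, where the standard error was 16.2 with all libraries and the test is void. The QKO effect on Dlk1 ran from 1.29 to 1.86, and the stage change of Mirg in PclWT against J2WT from 1.46 to 2.47.

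Without the count filter more genes were tested, and the number called rose by the largest factors in 12 of 20 comparisons. In the others it moved by a smaller factor and is not listed. The counts were 6836 in place of 4192 for the stages of J2WT, 6334 for 3788 in J2KO, 4703 for 2862 in TKO and 4063 for 2389 in QKO. For J2KO over J2WT they were 3109 for 1793 in ESCs and 2221 for 1220 in EpiLCs. In ESCs they were 2971 for 1710 in TKO and 2973 for 1700 in QKO over PclWT, 1042 for 558 in QKO over TKO and 5646 for 3304 in PclWT over J2WT. In EpiLCs they were 1446 for 740 in Pcgf2/4 KO and 1085 for 615 in QKO over TKO.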

Other observations

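Outside the domain, the genes whose 12 group means of log2(CPM + 1) were most like those of the maternal RNAs, among 13365 genes over the count minimum, were largely predicted genes and pseudogenes. The gene most like Meg3 and Rian was Osbpl1a on chromosome 18 (Pearson r = 0.982 and 0.981). Its means were 90.8 CPM in the J2 lines and the Pcgf set and 36 CPM in the Pcl lines. Eif3j2 was also among the 5 most like Rian (r = 0.971). Gm9625 on chromosome 13 was among the 5 most similar genes of Meg3, Rian and Mirg (Pearson r = 0.981, 0.978 and 0.991). Ftl2-ps and Rps13-ps1, named as pseudogenes of ferritin light chain and a ribosomal protein, were among the 5 most like Mirg (r = 0.988 and 0.987). Gm12690 and Gm48914 were most like Rtl1 (r = 0.988 each). Pseudogenes with near-identical parent genes share reads with them, so these values are uncertain. Whether the library sets differ in reads or mapping was not tested, for these genes or for the maternal RNAs.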
